A study of Mus musculus with 12 samples.

Results

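The interferon response genes described here are 43 genes that interferons switch on, defined by a list of gene symbols and all found once among the 24537 genes of the deposited liver table. They cover 12 roles: cytosolic RNA and DNA sensors, transcription factors, IFIT proteins, OAS proteins, Mx proteins, other restriction factors, the ISG15 system, PARP proteins, guanylate-binding proteins, immunity-related GTPases, chemokines and other interferon-induced genes. RNA-Seq was performed on livers of 12 male C57Bl/6J mice, 6 weeks of age at the start and housed individually. Con mice were fed ad libitum, and calorie-restricted (CR) mice ate 30% less food, and livers of 3 Con and 3 CR mice were taken on each of 2 days, day 25 and day 30. Per the paper, Con mice received a standard chow, and CR mice received a fortified version of it, given daily at noon. The chow and the feeding schedule thus differed along with the amount eaten. The paper also states that its mice were labelled with heavy water before sacrifice. Expression is given as FPKM, which scales exon reads for the length of the exons and the depth of the library. The libraries held 15748962 to 23345213 reads, and the hepatocyte gene Alb had the highest FPKM of its marker list, between 25401 and 51723 FPKM, in all 12 livers.

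Interferons are secreted proteins that warn tissue of infection. Type I interferons (alpha and beta) bind the receptor of Ifnar1 and Ifnar2, and interferon gamma binds that of Ifngr1 and Ifngr2. Janus kinases at the receptors then phosphorylate STAT proteins. A complex that holds Stat2 and Irf9, called ISGF3, binds the interferon-stimulated response element (ISRE), while STAT dimers bind the gamma-activated sequence (GAS). A low, tonic level of this signalling keeps many interferon response genes on in uninfected liver, in hepatocytes as well as in the resident macrophages, the Kupffer cells.

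The stretches in which these elements can lie are shown first, for members whose expression differed most between Con and CR mice and for related genes with a like arrangement. RefSeq promoters (build GRCm38.p6, 250 bases before to 50 after the transcription start) were matched by symbol for 30 of the 43 members. They were searched on both strands for a pair of GAAA tetramers separated by 2 bases of any kind, the core of the ISRE, and for TTCNNNGAA, the core of the GAS. Each line gives the last 150 bases before the start, 5′ to 3′ on the gene's strand, with matches to either core in capitals.
Ifit1, chr19:34640739-34640888, plus strand: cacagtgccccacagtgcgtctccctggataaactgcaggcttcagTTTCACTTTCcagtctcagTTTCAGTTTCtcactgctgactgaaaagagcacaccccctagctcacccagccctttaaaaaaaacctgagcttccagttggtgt
Isg15, chr4:156200819-156200968, minus strand: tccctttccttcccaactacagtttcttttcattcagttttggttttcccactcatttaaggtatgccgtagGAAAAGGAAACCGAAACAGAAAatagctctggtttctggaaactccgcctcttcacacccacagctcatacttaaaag
Rsad2, chr12:26456453-26456602, minus strand: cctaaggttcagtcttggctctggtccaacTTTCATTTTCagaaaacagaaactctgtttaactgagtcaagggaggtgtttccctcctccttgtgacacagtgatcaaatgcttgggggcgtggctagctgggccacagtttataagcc
Oasl1, chr5:114923090-114923239, plus strand: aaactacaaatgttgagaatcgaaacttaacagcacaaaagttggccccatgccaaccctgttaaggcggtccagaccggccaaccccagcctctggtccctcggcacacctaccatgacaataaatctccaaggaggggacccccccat
Igtp, chr11:58199406-58199555, plus strand: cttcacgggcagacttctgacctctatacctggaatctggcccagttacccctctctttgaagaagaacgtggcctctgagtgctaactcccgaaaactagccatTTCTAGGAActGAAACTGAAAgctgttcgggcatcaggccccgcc
Irgm2, chr11:58214827-58214976, plus strand: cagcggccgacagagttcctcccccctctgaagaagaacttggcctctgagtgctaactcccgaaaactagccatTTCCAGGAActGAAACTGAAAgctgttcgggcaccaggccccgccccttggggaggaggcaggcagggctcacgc
Tgtp1, chr11:48992247-48992396, minus strand: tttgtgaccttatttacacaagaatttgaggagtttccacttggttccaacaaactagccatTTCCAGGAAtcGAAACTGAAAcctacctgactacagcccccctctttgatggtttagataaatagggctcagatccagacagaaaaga
Ifit1 holds a pair of ISRE cores, read on the opposite strand as TTTC tetramers, that begin 104 and 85 bases before the start. Isg15 holds 3 overlapping cores beginning 78, 72 and 66 bases before the start, and Rsad2 holds 1. The 3 immunity-related GTPases printed here share a composite arrangement, in which the ISRE core begins 11 bases after the first base of a GAS core. Igtp and Irgm2, neighbours on chromosome 11, have a run of 38 identical bases in this stretch, so their promoters are not independent examples. Irgm1, another of the group with a promoter window, held 2 ISRE cores and no GAS core. In Bst2 and Ifitm3, which did not fall by the test on either day, an ISRE core began 6 bases after the first base of a GAS core. Oasl1, 1 of the members with the largest change, has neither core in its window. Of the 30 member promoters, 18 (60%) held an ISRE core and 10 (33.3%) a GAS core. Among the 17594 genes of the table with a promoter window, the shares were 3.48% and 8.12%. An ISRE core was present in 10 of the 14 promoters of members that fell at day 25 or day 30 and in 6 of the 10 of members that were tested and did not. A GAS core was present in 2 of the same 14 and in 5 of the same 10. A match describes the letters of the window, and binding was not measured.

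The first question was whether the livers of CR mice carried less or more of these transcripts than those of Con mice of the same day. They carried less of many of them, and no member was higher by the test. At day 25, 16 of the 33 members tested fell in CR mice and 0 rose, where 9.34% of all 10593 genes tested fell and 5.6% rose. At day 30, 20 of the 33 fell and 0 rose, against 16.4% and 8.33% of all genes. All 16 members that fell at day 25 also fell at day 30, where 7.24% of all genes fell on both days. The additional 4 at day 30 were Stat2, Ifit3, Isg15 and Cxcl9. A gene was said to rise or fall where limma on log2(FPKM + 1) gave a p, adjusted by Benjamini-Hochberg over all genes, under 0.1. This scale understates the change of genes with low FPKM. The median log2 fold change of the 33 members was -0.52 at day 25 and -0.50 at day 30, beside -0.04 and -0.07 for all genes tested. Falls of at least 2-fold on this scale were seen in 2 members at day 25, Oasl1 and Irgm2, where 0.642% of all genes fell that far. Without the third CR mouse of day 25, neither of them reached 2-fold (log2 fold changes -0.94 and -0.98). At day 30, 7 members fell at least 2-fold (Ifit1, Oasl1, Rsad2, Isg15, Igtp, Iigp1 and Irgm2), against 1.28% of all genes.

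The test was limited to genes that reached 1 FPKM in 3 or more libraries, which 33 members did. Of these, 6 reached 1 FPKM in fewer than 3 CR mice (Ifit1, Mx2, Rsad2, Gbp2, Cxcl10 and Trim30a) and so passed mainly through Con mice. Trim30a passed through Con mice only. Among the other 27, 12 fell at day 25 and 16 at day 30. Without a filter, all 43 could be fitted, and 17 fell at day 25 and 21 at day 30, with 0 higher, where 4.9% and 8.87% of the 18362 genes with any reads fell. Scaling each library by its median ratio to the others, which brought the median change of all genes close to 0, left 15 and 18 members lower and 0 higher. Under that scaling 7.54% and 11.7% of all genes fell, and the calls over all genes split into 929 higher and 799 lower at day 25 and 1319 higher and 1238 lower at day 30, compared with 593 higher and 989 lower and 882 higher and 1737 lower for FPKM as deposited. The map of all 43 members by mouse shows both the members that fell and those that did not pass.

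**Figure D1:**
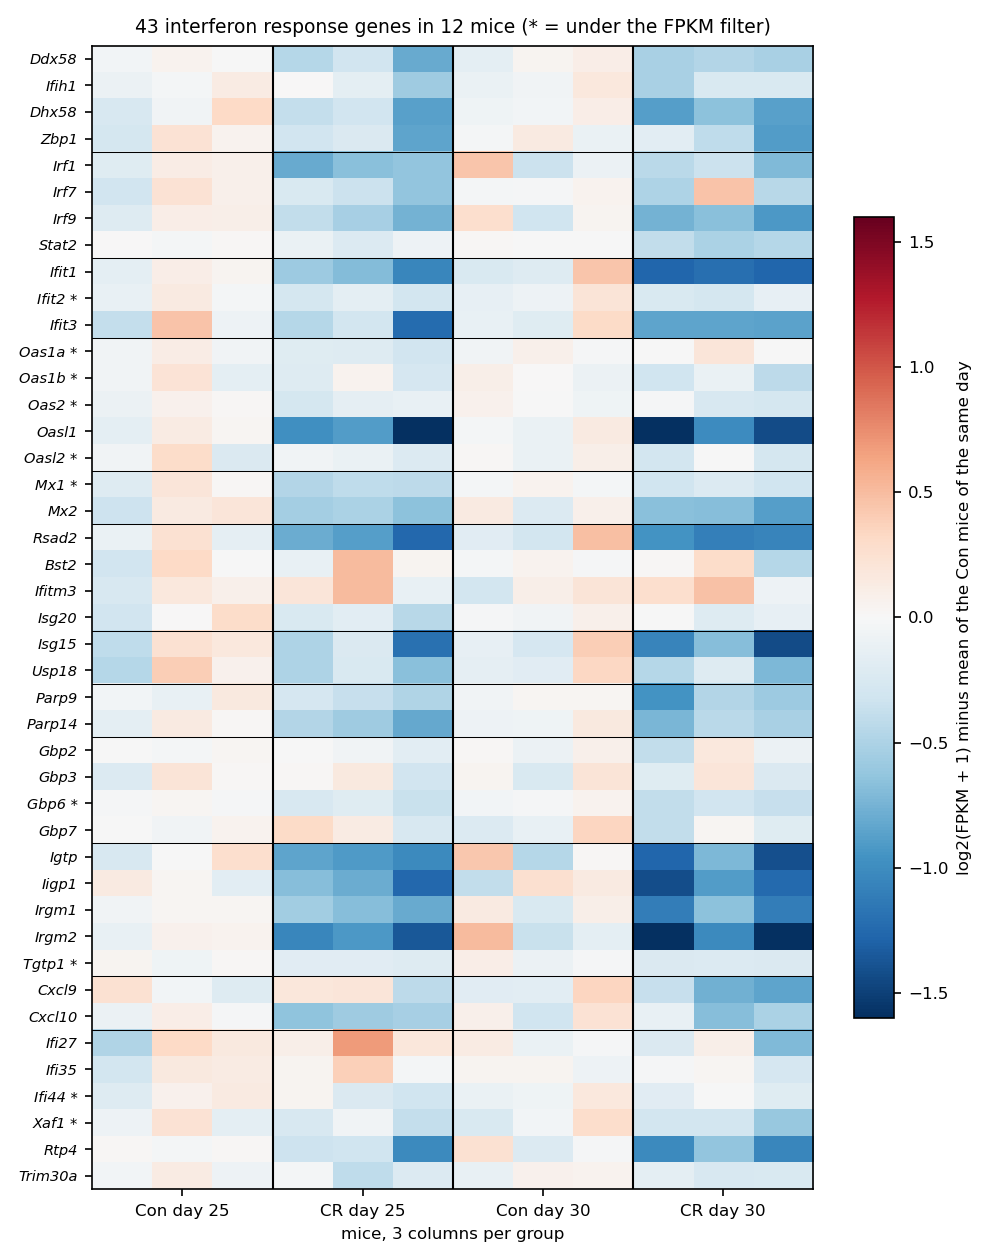
Rows are the 43 members, ordered by role with lines between roles, and columns are the 12 mice, 3 per group. The colour is log2(FPKM + 1) minus the mean of the 3 Con mice of the same day (blue lower, red higher, white no difference), and an asterisk marks the 10 members under the FPKM filter. The immunity-related GTPases, Oasl1, Ifit1 and Rsad2 are blue in all 6 CR mice, while Bst2, Ifitm3, Ifi27, Ifi35 and Gbp7 are mixed.

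Single mice differed in how low the members were. Averaged over the 43 members, the difference from the Con mean in log2(FPKM + 1) was -0.385 ± 0.168 at day 25 and -0.507 ± 0.135 at day 30 (SD, n = 3 CR mice each). In single CR mice the mean difference was -0.32, -0.26 and -0.58 at day 25 and -0.54, -0.36 and -0.63 at day 30, while the Con mice lay between -0.15 and 0.12. The third CR mouse of day 25 was the lowest of its group for 35 of the 43 members. The second CR mouse of day 30 was the highest of its group for 33. The CR mice did not overlap the Con mice for 23 members at day 25, all lower (13.8% of the 18362 genes with any reads lay that way), and for 28 at day 30 (18%). In 19 of the 43, this held on both days, where it held for 8.22% of the same genes. No member was at 0 in any library, while single libraries had reads for 15353 to 15893 of these 18362 genes. The shares of these genes, here and in the fit without a filter, thus include genes without reads in some libraries, unlike the members.

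The immunity-related GTPases, which dock on the vacuoles of intracellular parasites and bacteria, fell together. All 4 members tested fell on both days, and in all 5 of the group the CR mice lay below the Con mice on both days. Iigp1 (Irga6), an effector GTPase of the group, was its most abundant member. At day 25, Iigp1 was at 83.8, 77.5 and 67.3 FPKM in Con mice and 46.9, 43.2 and 31.3 FPKM in CR mice (log2 fold change -0.91, SE 0.20, adjusted p = 0.0142). At day 30, it was at 72.7, 114 and 105 FPKM in Con mice and 35.1, 51.1 and 39.7 FPKM in CR mice (log2 fold change -1.19, SE 0.20, adjusted p = 0.00225). The CR mice thus had 53.1% and 43.1% of the Con mean, with every CR mouse under every Con mouse. Irgm2 (chromosome 11, 58214977 to 58222783, in the mm10 coordinates of the table), 1 of the regulatory GTPases that keep the effectors off the cell's own membranes, was at 12.4, 14.3 and 14.2 FPKM in Con mice and 6.12, 6.71 and 4.73 FPKM in CR mice at day 25 (log2 fold change -1.11, SE 0.22, adjusted p = 0.00998). At day 30, Irgm2 was at 23.2, 12.2 and 14.3 FPKM in Con mice and 4.41, 7.38 and 4.28 FPKM in CR mice (log2 fold change -1.45, SE 0.22, adjusted p = 0.00132), the largest change among the members tested on the log2(FPKM + 1) scale, which understates the change of low genes. As a ratio of mean FPKM, Con over CR at day 30, Irgm2 (3.09) came after Ifit1 (4.90), Oasl1 (3.96) and Rsad2 (3.53). A single Con mouse of day 30 stood above the other 2, and the groups were separate without it. Igtp (Irgm3; chromosome 11, 58199556 to 58207592), another regulator, was at 9.66, 11.6 and 14.4 FPKM in Con mice and 6.13, 5.82 and 5.3 FPKM in CR mice at day 25 (log2 fold change -0.92) and at 17.8, 9.2 and 13.1 FPKM in Con mice and 4.78, 7.49 and 4.25 FPKM in CR mice at day 30 (log2 fold change -1.13). Irgm1 (chromosome 11, 48865249 to 48871346), the third, was at 15.3, 16.3 and 16.4 FPKM in Con mice and 10.6, 9.6 and 8.71 FPKM in CR mice at day 25 (log2 fold change -0.68) and at 20.4, 15.4 and 19.7 FPKM in Con mice and 8.01, 11.3 and 8.0 FPKM in CR mice at day 30 (log2 fold change -0.96). Neither gene had a CR mouse within the range of its Con mice. Tgtp1, whose promoter is printed above and whose reads could be shared with its near-identical copy Tgtp2, was rare, at 0.071 to 0.366 FPKM in the 12 livers, and its CR mice had 35.1% of the Con mean at day 25 and 30.4% at day 30. In a fit without the filter on low FPKM, Tgtp1 was lower on both days (adjusted p = 0.0541 and 0.0175).

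The guanylate-binding proteins are GTPases that coat and rupture pathogen vacuoles together with the former group. Of the 3 tested, 0 passed on either day. Gbp7 was the most abundant and was at 1.89, 1.8 and 2.02 FPKM in Con mice and 2.59, 2.17 and 1.42 FPKM in CR mice at day 25. At day 30 it was at 2.57, 2.83 and 4.27 FPKM in Con mice and 2.17, 3.24 and 2.65 FPKM in CR mice (log2 fold change -0.18, SE 0.17, adjusted p = 0.481). Con and CR mice overlapped on both days. The log2 fold changes of Gbp2 and Gbp3 lay between -0.11 and -0.04 on both days. Gbp6 was under the filter, with 0.379, 0.43 and 0.372 FPKM in Con mice and 0.164, 0.221 and 0.092 FPKM in CR mice at day 25 and 0.454, 0.479 and 0.557 FPKM in Con mice and 0.139, 0.215 and 0.159 FPKM in CR mice at day 30. In the fit without a filter Gbp6 was lower at day 25 (adjusted p = 0.0155) and at day 30 (adjusted p = 0.00267).

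The antiviral effectors held the members with the largest falls beside the GTPases. Oasl1 (chromosome 5, 114923240 to 114937911), a relative of the oligoadenylate synthetases that lacks their enzymatic activity, was at 3.88, 4.97 and 4.54 FPKM in Con mice and 1.76, 1.92 and 0.705 FPKM in CR mice at day 25 (log2 fold change -1.18, SE 0.21, adjusted p = 0.00486). At day 30, Oasl1 was at 4.27, 3.97 and 4.91 FPKM in Con mice and 0.649, 1.68 and 0.992 FPKM in CR mice (log2 fold change -1.38, SE 0.21, adjusted p = 0.00118). The CR mice had 32.8% and 25.2% of the Con mean, and the groups were far apart on both days. The other members of the family, whose active enzymes make the small RNA signal that activates RNase L, were rare, and Oas1a, Oas1b, Oas2 and Oasl2 were at 0.159 to 1.22 FPKM over the 12 livers. Oas1a fell at day 25 in the fit without a filter (adjusted p = 0.0837), but not in voom without a filter (adjusted p = 0.157). At day 30 its CR mice had 120% of the Con mean and overlapped the Con mice.

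Ifit1 (chromosome 19, 34640889 to 34650009), which binds RNA lacking the host's cap methylation, was at 1.96, 2.56 and 2.41 FPKM in Con mice and 1.2, 1.04 and 0.604 FPKM in CR mice at day 25 (log2 fold change -0.77, SE 0.17, adjusted p = 0.0163). At day 30, it was at 2.17, 2.24 and 4.08 FPKM in Con mice and 0.553, 0.625 and 0.553 FPKM in CR mice (log2 fold change -1.24, SE 0.17, adjusted p = 0.00081). The Con mean was 4.9 times the CR mean at day 30, the largest ratio of that day among the 43 members, at levels of 32 to 242 reads per library. Ifit3, its partner, which has a near-identical copy in Ifit3b that could share its reads, was at 1.44, 3.36 and 1.99 FPKM in Con mice and 1.3, 1.59 and 0.349 FPKM in CR mice at day 25, where the lowest Con mouse lay within the CR range, and at 2.62, 2.42 and 3.87 FPKM in Con mice and 1.18, 1.19 and 1.16 FPKM in CR mice at day 30. The fall of Ifit3 passed at day 30 (adjusted p = 0.0338), except without the Con mouse that the table numbers 12, and not at day 25 (log2 fold change -0.66, adjusted p = 0.115), where it passed once the paired replicate numbers were fitted as a block (adjusted p = 0.048). Ifit2 was under the filter, between 0.252 and 0.978 FPKM in the 12 livers. Its CR mice had 55.3% of the Con mean at day 25 and 65.2% at day 30, with separate groups on both days. In the fit without a filter, Ifit2 fell over both days (adjusted p = 0.03) and on neither day alone (adjusted p = 0.205 and 0.196).

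Rsad2 (viperin; chromosome 12, 26442743 to 26456452), an enzyme that makes a chain-terminating nucleotide, was at 2.5, 3.46 and 2.4 FPKM in Con mice and 1.16, 1.04 and 0.579 FPKM in CR mice at day 25 (log2 fold change -0.98, SE 0.19, adjusted p = 0.00891). At day 30, Rsad2 was at 2.19, 1.96 and 4.04 FPKM in Con mice and 0.874, 0.694 and 0.749 FPKM in CR mice (log2 fold change -1.03, SE 0.19, adjusted p = 0.00386). Every CR mouse was below every Con mouse. The Mx proteins are dynamin-like GTPases that trap viral nucleocapsids. Mx2 was at 1.31, 2.22 and 2.35 FPKM in Con mice and 1.0, 1.06 and 0.849 FPKM in CR mice at day 25 (log2 fold change -0.57) and at 2.01, 1.35 and 1.88 FPKM in Con mice and 0.714, 0.707 and 0.482 FPKM in CR mice at day 30 (log2 fold change -0.74), and it fell on both days, although not at day 25 without the third Con or the third CR mouse. Mx1, a gene that is defective in C57BL/6 strains, did not exceed 0.686 FPKM, with a CR mean at 19.9% of the Con mean at day 25 and 32.4% at day 30. In the fit without a filter Mx1 was lower on both days (adjusted p = 0.0214 and 0.059).

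The remaining restriction factors, Ifitm3, Bst2 and Isg20, did not pass on either day, although Ifitm3 and Bst2 were among the most abundant members. Ifitm3, which blocks virus entry at the endosome, was at 146, 196 and 185 FPKM in Con mice and 199.7, 249 and 161 FPKM in CR mice at day 25 and at 174, 228 and 247 FPKM in Con mice and 259, 295 and 202 FPKM in CR mice at day 30. The groups overlapped, and the log2 fold changes of 0.20 and 0.22 did not pass (adjusted p = 0.581 and 0.469). Bst2 (tetherin), which holds budding virus at the membrane, lay between 41.7 and 84.9 FPKM over all mice, with log2 fold changes of 0.14 and -0.05. Isg20, an exonuclease, had log2 fold changes of -0.29 and -0.11. These 3 promoters each held an ISRE or a GAS core.

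**Figure D2:**
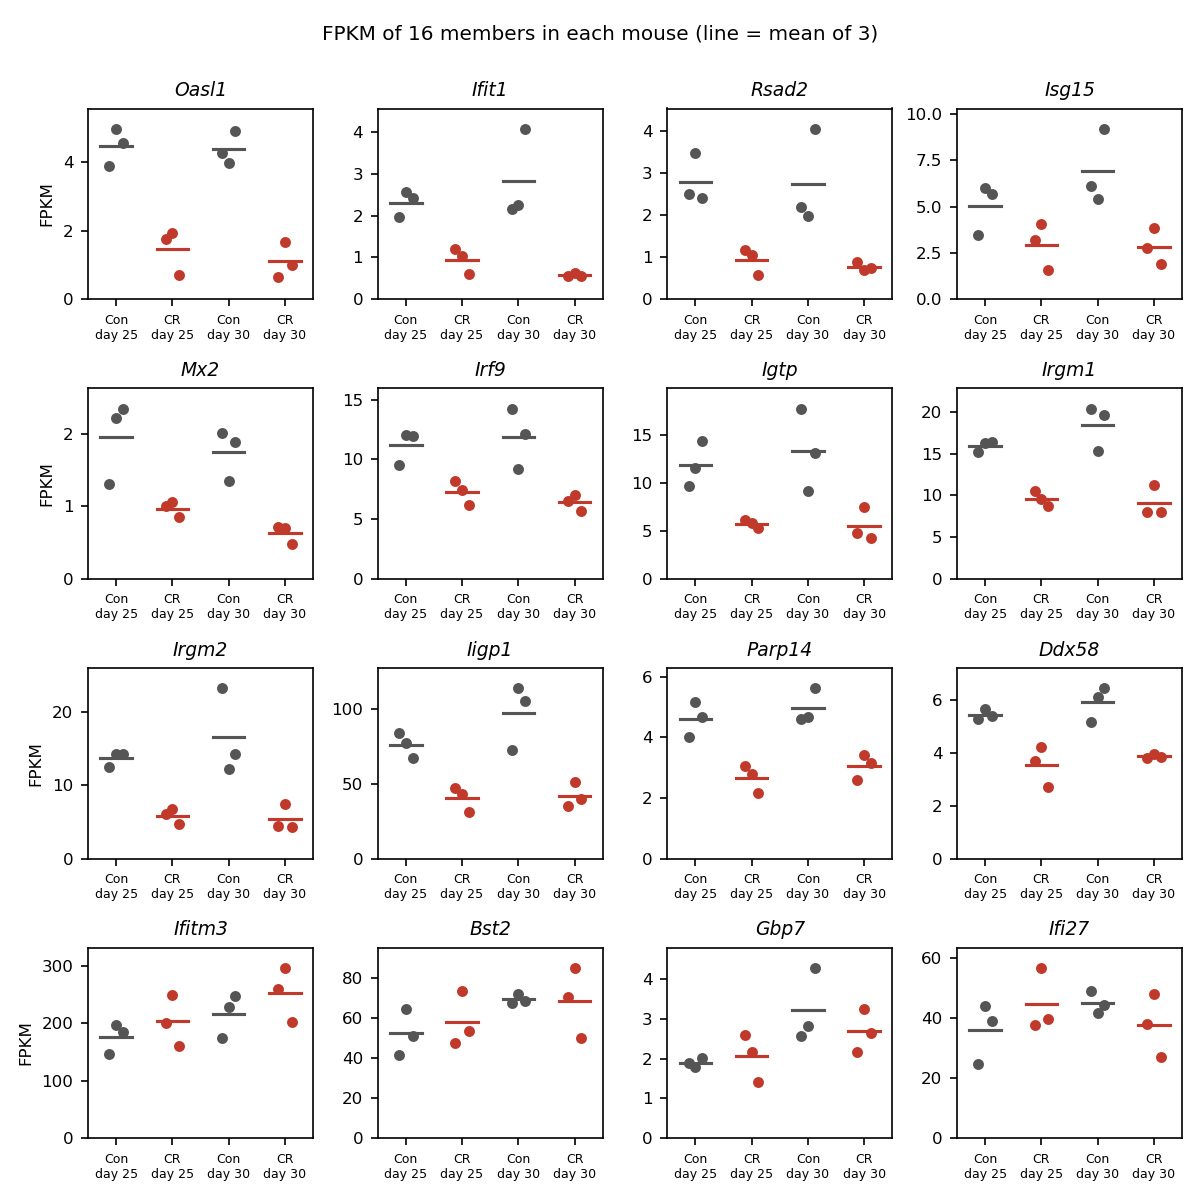
FPKM (vertical axes, linear from 0) of 16 members in each mouse, for Con (grey) and CR (red) mice at day 25 and day 30, with a line at the mean of the 3 mice. In the upper 12 panels CR mice lie below Con mice, except for Isg15 at day 25, while in the 4 panels of the bottom row (Ifitm3, Bst2, Gbp7 and Ifi27) the groups overlap.

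Isg15 (chromosome 4, 156199424 to 156200818), a ubiquitin-like protein that is attached to other proteins, was at 3.47, 6.01 and 5.68 FPKM in Con mice and 3.2, 4.05 and 1.59 FPKM in CR mice at day 25, where the groups overlapped and the fall did not pass (log2 fold change -0.64, SE 0.27, adjusted p = 0.161). At day 30, Isg15 was at 6.1, 5.42 and 9.2 FPKM in Con mice and 2.74, 3.83 and 1.88 FPKM in CR mice, with the groups separate (log2 fold change -1.05, SE 0.27, adjusted p = 0.0209). Usp18, which removes Isg15 and also restrains the type I receptor, was at 2.69, 5.63 and 4.32 FPKM in Con mice and 2.6, 3.29 and 2.18 FPKM in CR mice at day 25 and at 3.5, 3.41 and 5.25 FPKM in Con mice and 2.63, 3.33 and 2.02 FPKM in CR mice at day 30. Its fall passed over both days with day as a covariate (log2 fold change -0.46, adjusted p = 0.0274) and on neither day alone. In this fit of 6 CR against 6 Con mice, 23 of the 33 members fell and 0 rose, where 26.1% of all genes fell and 14.5% rose. Ifih1, Zbp1, Usp18 and Trim30a were the members that passed here and on neither day alone, and Cxcl9 was the member that passed at day 30 and not here. The 23 that fell include Ifit1, Mx2, Rsad2, Cxcl10 and Trim30a, which passed the filter mainly or only through Con mice. Without a filter, 29 of all 43 members fell over both days and 0 rose, where 16.7% of the 18362 genes with any reads fell.

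The PARP proteins of the list, Parp9 and Parp14, belong to the ADP-ribosyltransferase family of enzymes. Parp14 was at 4.02, 5.18 and 4.67 FPKM in Con mice and 3.05, 2.79 and 2.17 FPKM in CR mice at day 25 (log2 fold change -0.62) and at 4.61, 4.69 and 5.62 FPKM in Con mice and 2.58, 3.42 and 3.17 FPKM in CR mice at day 30 (log2 fold change -0.56). It fell on both days, with separate groups. Parp9 was at 12.7, 11.9 and 14.7 FPKM in Con mice and 10.7, 9.91 and 9.07 FPKM in CR mice at day 25 (adjusted p = 0.0862) and at 14, 14.9 and 15 FPKM in Con mice and 7.06, 10.3 and 9.47 FPKM in CR mice at day 30 (adjusted p = 0.00452). With the replicate numbers as a block, the fall of Parp9 at day 25 no longer passed (adjusted p = 0.103). It was also lost with a filter of 0.1 FPKM, without a filter (in voom too), under median-ratio scaling, TPM or quantile normalization, and without any 1 mouse of that day other than the second Con mouse. Parp9 overlaps Dtx3l in the annotation, so reads in the overlap could have come from either gene.

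Of the cytosolic sensors, which recognise viral nucleic acid, the RIG-I gene and its regulator fell on both days. Ddx58 (RIG-I; chromosome 4, 40203777 to 40239825) was at 5.28, 5.68 and 5.4 FPKM in Con mice and 3.7, 4.22 and 2.7 FPKM in CR mice at day 25 (log2 fold change -0.52) and at 5.19, 6.11 and 6.44 FPKM in Con mice and 3.82, 3.97 and 3.83 FPKM in CR mice at day 30 (log2 fold change -0.50). Its CR mice had 64.9% and 65.5% of the Con mean, with separate groups on both days. Dhx58 (LGP2) was at 2.11, 2.59 and 3.64 FPKM in Con mice and 1.85, 2.01 and 1.04 FPKM in CR mice at day 25 and at 2.87, 2.93 and 3.39 FPKM in Con mice and 1.2, 1.57 and 1.22 FPKM in CR mice at day 30 (adjusted p = 0.0696 and 0.0067). Its day 25 call was lost without a filter, after quantile normalization, with only the day 25 groups in the model, and without the second Con, the third Con or the third CR mouse. Ifih1 (MDA5), the most abundant sensor, was at 4.55, 4.79 and 5.52 FPKM in Con mice and 4.95, 4.33 and 2.99 FPKM in CR mice at day 25 and at 6.05, 6.29 and 7.54 FPKM in Con mice and 4.29, 5.44 and 5.41 FPKM in CR mice at day 30. Zbp1, a sensor of left-handed nucleic acid, was at 1.61, 2.74 and 2.3 FPKM in Con mice and 1.58, 1.72 and 0.77 FPKM in CR mice at day 25 and at 2.52, 2.96 and 2.35 FPKM in Con mice and 2.21, 1.73 and 0.94 FPKM in CR mice at day 30. Both genes had separate groups at day 30 and overlapping ones at day 25, and both fell over the 2 days together (adjusted p = 0.0403 and 0.0214).

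Among the transcription factors, the DNA-binding part of ISGF3 fell on both days. Irf9 (chromosome 14, 55604579 to 55610030) was at 9.5, 12.1 and 12 FPKM in Con mice and 8.21, 7.41 and 6.21 FPKM in CR mice at day 25 (log2 fold change -0.56) and at 14.3, 9.23 and 12.2 FPKM in Con mice and 6.54, 7.01 and 5.71 FPKM in CR mice at day 30 (log2 fold change -0.78). Its day 25 call was lost without the second Con, the third Con or the third CR mouse. Stat2 was at 12.2, 12 and 12.4 FPKM in Con mice and 11.3, 10.4 and 11.4 FPKM in CR mice at day 25 and did not pass (adjusted p = 0.293). At day 30, Stat2 was at 12.8, 12.5 and 12.5 FPKM in Con mice and 9.33, 8.56 and 8.91 FPKM in CR mice and fell (log2 fold change -0.45, SE 0.076, adjusted p = 0.0024), with little spread within either group. Irf1, an activator that interferon gamma induces, was at 9.38, 11.9 and 11.6 FPKM in Con mice and 5.81, 6.5 and 6.72 FPKM in CR mice at day 25 (adjusted p = 0.0274) and at 17, 9.4 and 11.4 FPKM in Con mice and 8.86, 9.47 and 7.13 FPKM in CR mice at day 30 (adjusted p = 0.0739). At day 30 the Irf1 groups overlapped in 1 CR mouse, and the call was lost without a filter, under median-ratio scaling, after quantile normalization, with only the day 30 groups in the model, and without the first or the third CR mouse or the Con mouse that the table numbers 10 or 12. Irf7, which drives interferon alpha genes, was at 8.22, 12.4 and 11.1 FPKM in Con mice and 8.65, 8.01 and 6.36 FPKM in CR mice at day 25. At day 30 it was at 10.4, 10.6 and 11.1 FPKM in Con mice and 7.27, 15.1 and 7.63 FPKM in CR mice. It did not pass on either day. Without the second CR mouse of day 30, Irf7 fell that day (log2 fold change -0.469, adjusted p = 0.0683).

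The chemokines Cxcl9 and Cxcl10 attract T cells through Cxcr3. Cxcl10 was at 1.04, 1.34 and 1.14 FPKM in Con mice and 0.388, 0.464 and 0.50 FPKM in CR mice at day 25 (log2 fold change -0.58, adjusted p = 0.0405). At day 30 it was at 1.74, 1.07 and 2.03 FPKM in Con mice and 1.37, 0.611 and 0.822 FPKM in CR mice (log2 fold change -0.43, adjusted p = 0.0833), with overlapping groups. Cxcl9 was at 1.54, 1.07 and 0.86 FPKM in Con mice and 1.42, 1.45 and 0.60 FPKM in CR mice at day 25, where the groups overlapped, and at 1.9, 1.94 and 3.18 FPKM in Con mice and 1.55, 0.94 and 0.827 FPKM in CR mice at day 30 (log2 fold change -0.66, adjusted p = 0.0444), where they did not. Both rest on few reads, and the day 30 calls of both were lost without the Con mouse that the table numbers 12, and likewise without the second or the third CR mouse. That of Cxcl10 was also lost without the Con mouse numbered 10, without a filter (in voom too), under median-ratio scaling, after quantile normalization and with only the day 30 groups in the model, and its day 25 call was lost without the second Con or the first CR mouse. Cxcl10 lies within the span of Art3, so its reads could be shared.

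Of the other interferon-induced genes, Rtp4, a chaperone of membrane receptors, fell on both days. It was at 5.26, 5.06 and 5.26 FPKM in Con mice and 3.94, 3.97 and 2.06 FPKM in CR mice at day 25 (adjusted p = 0.0772) and at 8.34, 5.83 and 6.78 FPKM in Con mice and 2.92, 4.1 and 2.84 FPKM in CR mice at day 30 (adjusted p = 0.00637). Its day 25 call was lost with a filter of 0.1 FPKM, without a filter (in voom too), after quantile normalization, with only the day 25 groups in the model, and without any 1 of the 3 Con mice or the third CR mouse. Trim30a, a ubiquitin ligase, was at 0.852, 1.1 and 0.805 FPKM in Con mice and 0.878, 0.439 and 0.648 FPKM in CR mice at day 25 and at 0.909, 1.17 and 1.16 FPKM in Con mice and 0.867, 0.738 and 0.752 FPKM in CR mice at day 30, and passed over both days only (adjusted p = 0.0525). Ifi27 was the most abundant of this group and was at 24.8, 44.1 and 39.2 FPKM in Con mice and 37.6, 56.6 and 39.8 FPKM in CR mice at day 25 and at 49, 41.5 and 44.3 FPKM in Con mice and 38, 48 and 27 FPKM in CR mice at day 30. Ifi27 and Ifi35 did not pass on either day, and their log2 fold changes were above 0 at day 25 (0.32 and 0.13) and below 0 at day 30 (-0.28 and -0.08). Ifi44 and Xaf1 were under the filter, at 0.172 to 1.32 FPKM.

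**Figure D3:**
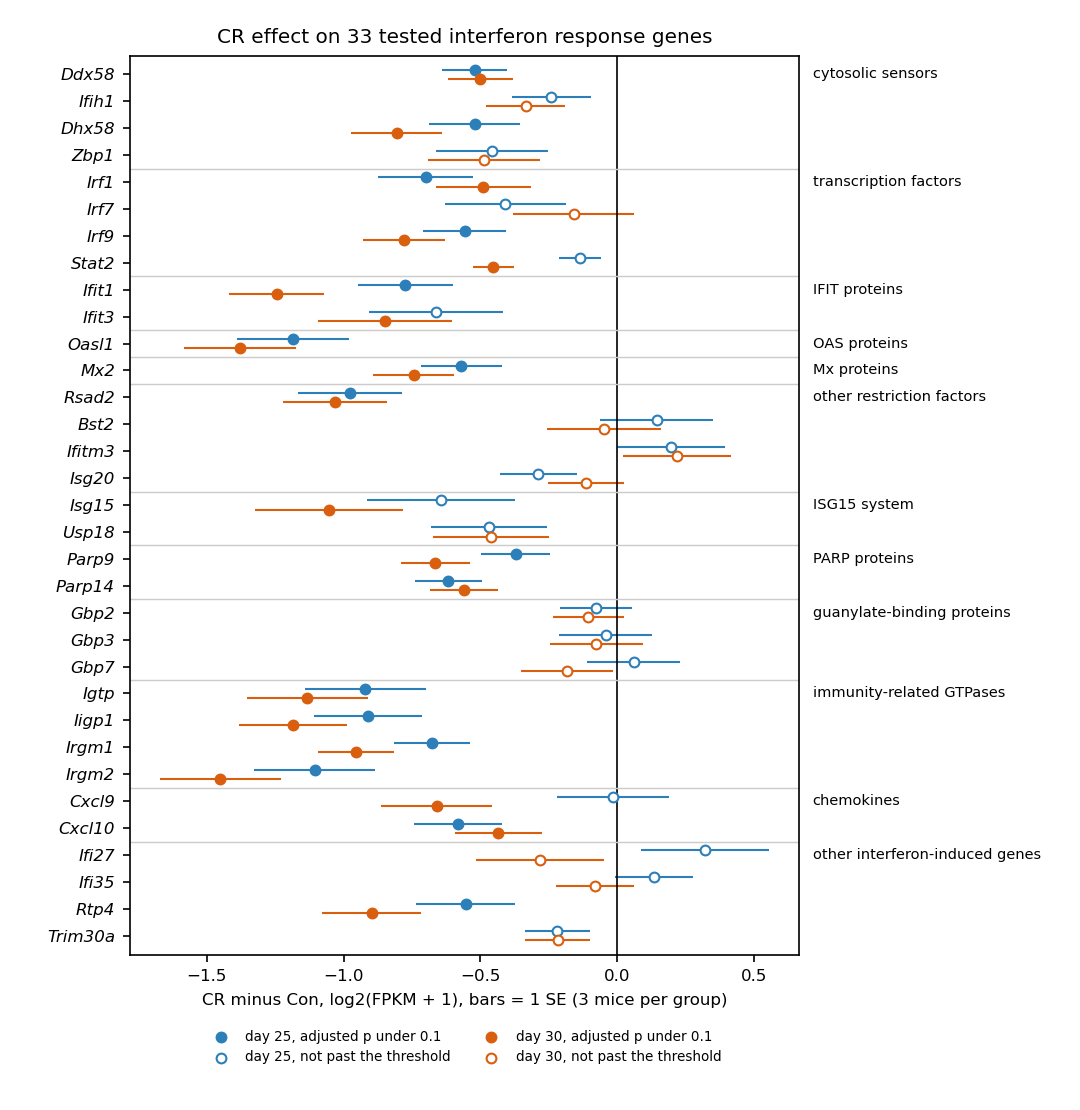
CR minus Con in log2(FPKM + 1) (horizontal axis) for the 33 members tested, grouped by role, at day 25 (blue) and day 30 (orange). Bars are 1 SE, filled points passed an adjusted p under 0.1 and open points did not. All filled points lie left of 0, and the points of Gbp2, Gbp3, Gbp7, Bst2, Ifitm3, Ifi27 and Ifi35 lie between -0.28 and 0.32.

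The second question was whether the CR effect differed between the days. The log2 fold change was lower at day 30 than at day 25 in 24 of the 33 members tested (72.7%), beside 57.6% of all genes, and the log2 fold changes of the 33 members at the 2 days had a Pearson correlation of 0.864 across genes, beside 0.805 across all 10593 genes, with genes not being independent replicates. No member passed the test of the difference in the CR effect between days, in limma, and 2 had an unadjusted p under 0.05. The members without a call for this difference include Stat2, Ifit3, Isg15 and Cxcl9, which passed at day 30 and not at day 25. Over all genes 1 passed (0.00944%) and 366 had an unadjusted p under 0.05. Within Con mice, 0 members passed between day 25 and day 30 (3 at an unadjusted p under 0.05), where 0% of all genes passed. Within CR mice, 0 members passed (2 at an unadjusted p under 0.05), where 0.321% of all genes did.

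The pathway upstream of the members was followed from ligands to receptors and signal transducers. Of the 10 interferon genes on the ligand list, 8 (Ifnb1, Ifna1, Ifna2, Ifna4, Ifna5, Ifne, Ifnl2 and Ifnl3) had no read in any library. This allows up to 3 reads per library, or 0.168 to 0.335 FPKM depending on the gene and the library, and covers counting error only. Ifng had a single read in 2 libraries, 1 of a Con and 1 of a CR mouse of day 30, and Ifnk did not exceed 0.326 FPKM. A difference in the ligands was therefore not detectable at this depth. Il18, a cytokine that raises interferon gamma in lymphocytes, was the ligand-list gene that could be tested, with log2 fold changes of -0.27 and -0.19 that did not pass on either day (adjusted p = 0.0643 over both).

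The receptors were expressed and partly fell. Ifnar2, the most abundant, was at 58.6, 64.1 and 57 FPKM in Con mice and 45.3, 51.6 and 42.4 FPKM in CR mice at day 25 and at 51.9, 53.8 and 57.2 FPKM in Con mice and 38.7, 43.7 and 40.9 FPKM in CR mice at day 30 (adjusted p = 0.0405 and 0.02). Ifnar1 was at 7.07, 6.62 and 6.89 FPKM in Con mice and 4.55, 5.71 and 5.17 FPKM in CR mice at day 30 and fell (adjusted p = 0.022), and at day 25 it had a log2 fold change of -0.22 (adjusted p = 0.174). Ifngr2, the signalling chain of the gamma receptor, was at 9.57, 10.1 and 8.87 FPKM in Con mice and 6.18, 8.01 and 5.07 FPKM in CR mice at day 25 and at 10.8, 9.21 and 10.5 FPKM in Con mice and 6.64, 7.96 and 4.74 FPKM in CR mice at day 30, and it fell on both days (adjusted p = 0.069 and 0.0258). In Ifnar2 and Ifngr2 every CR mouse lay below every Con mouse of its day. Ifngr1, the binding chain, did not pass (log2 fold changes -0.31 and -0.06), nor did Il10rb. Ifnlr1, the lambda receptor, did not exceed 0.068 FPKM. Of 5 genes tested on the list of Janus kinases and STATs, 0 fell at day 25, 3 at day 30 and 5 over both days. Of all genes, 16.4% fell at day 30 and 26.1% over both days. The Janus kinases Jak1 and Tyk2 did not pass at day 25 and fell at day 30. Jak1, which serves both interferon types, was at 17.7, 20.2 and 21.3 FPKM in Con mice and 14.3, 16.2 and 18.1 FPKM in CR mice at day 30 (log2 fold change -0.27, SE 0.10, adjusted p = 0.0922), and Tyk2, which serves the type I receptor, was at 4.68, 4.25 and 5.14 FPKM in Con mice and 3.84, 3.28 and 3.43 FPKM in CR mice (log2 fold change -0.33, SE 0.10, adjusted p = 0.0433). The groups overlapped for Jak1 and were separate for Tyk2.

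Of 58 listed interferon-induced genes outside the 43, 39 were tested, and 14 fell, 0 rose and 25 did not pass at day 25. At day 30, 18 fell, 1 rose and 20 did not pass. Of all genes tested, 9.34% fell and 5.6% rose at day 25, and 16.4% fell and 8.33% rose at day 30. The median log2 fold changes of the 39 were -0.29 and -0.31. Ifi47, a GTPase of the same family as Irgm2, had the largest fall of the tested pathway genes in log2(FPKM + 1), with 5.49, 5.87 and 5.27 FPKM in Con mice and 2.11, 2.65 and 1.59 FPKM in CR mice at day 25 (log2 fold change -1.08, SE 0.15, adjusted p = 0.00139). At day 30, Ifi47 was at 7.54, 8.41 and 7.49 FPKM in Con mice and 1.59, 2.42 and 1.34 FPKM in CR mice (log2 fold change -1.68, SE 0.15, adjusted p = 4.12e-05). Trim14, an adaptor of antiviral signalling, was at 11.1, 9.7 and 12.7 FPKM in Con mice and 4.99, 6.23 and 3.7 FPKM in CR mice at day 30 (log2 fold change -1.04). Lgals3bp, a secreted glycoprotein, was at 26.4, 27.3 and 26.3 FPKM in Con mice and 12.3, 14.7 and 13.6 FPKM in CR mice at day 30 (log2 fold change -0.93). Both also fell at day 25, as did Cmpk2, Trim12c, Trim25, Trim34a, Zc3hav1, Eif2ak2, Adar, Pml, Gbp11, Parp12 and Lgals9. Ifitm1, a neighbour of Ifitm3, was the gene that rose, at 2.98, 3.14 and 2.45 FPKM in Con mice and 6.07, 5.59 and 4.21 FPKM in CR mice at day 30 (adjusted p = 0.0243).

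Some of the antigen presentation genes that interferon induces fell. Of 13 tested, 2 fell at day 25 (Tap1 and Nlrc5) and 4 at day 30 (Tap1, Psmb9, Nlrc5 and B2m), with 0 higher. These shares, 15.4% and 30.8%, stand beside the 9.34% and 16.4% of all genes that fell. Tap1, a subunit of the peptide transporter, was at 8.21, 5.4 and 7.82 FPKM in Con mice and 3.4, 3.22 and 2.32 FPKM in CR mice at day 30 (log2 fold change -1.03, SE 0.16, adjusted p = 0.00165). The median log2 fold change of the 13 was -0.02 at day 25 and -0.04 at day 30. Of 8 genes tested on the list of other interferon regulatory factors, 1 fell at day 25 and 2 at day 30, Irf5 among those of day 30. Irf2bp2, a corepressor that binds Irf2, was on the same list and rose on both days. Irf2bp2 was at 9.89, 9.53 and 9.31 FPKM in Con mice and 16.9, 11.4 and 20.4 FPKM in CR mice at day 25 and at 7.7, 6.9 and 6.08 FPKM in Con mice and 14.6, 11.9 and 14 FPKM in CR mice at day 30 (adjusted p = 0.0262 and 0.00423). Of 8 sensing adaptors and kinases tested, Tlr3 and Tbk1 fell on both days, Traf3 and Unc93b1 at day 30, and 0 rose. That was 25% of them at day 25 and 50% at day 30. Of 7 negative regulators, 0 fell at day 25 and 1, Ptpn6, at day 30, which was 14.3% beside the 16.4% of all genes.

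**Figure D4:**
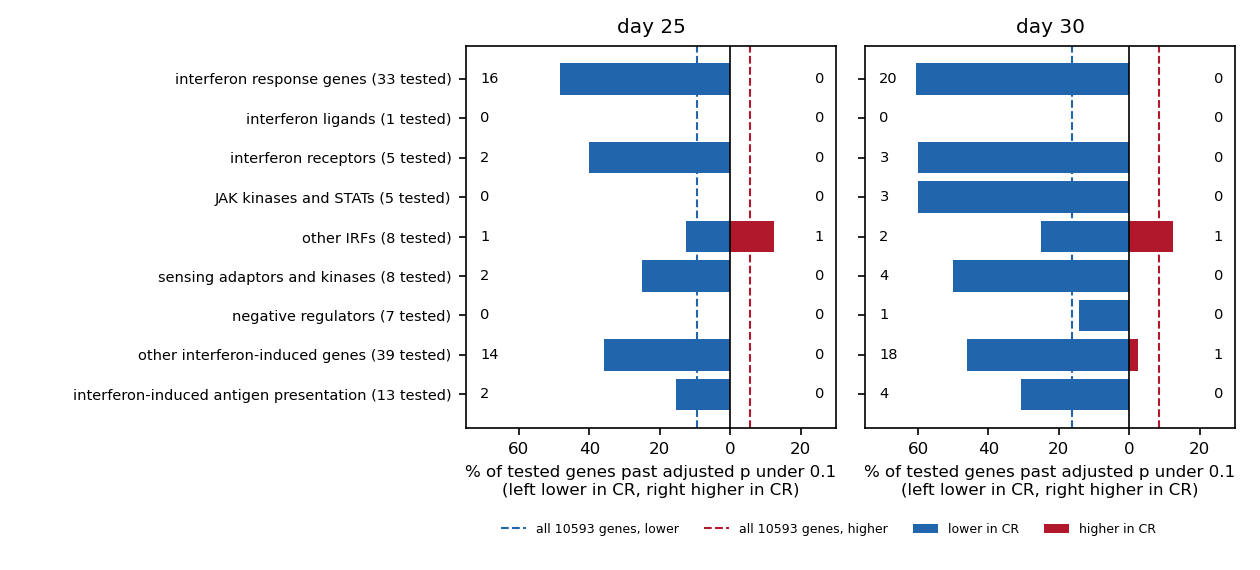
Share of the tested genes of each list that passed an adjusted p under 0.1, lower in CR to the left and higher to the right (horizontal axis, percent of tested genes), at day 25 and day 30, with the number of genes printed at the edges. Dashed lines give the shares among all 10593 genes tested (9.34% and 16.4% lower, 5.6% and 8.33% higher). Among the 33 tested members, 16 and 20 were lower, and the receptor, kinase and ligand lists hold 5 tested genes or fewer.

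Liver holds several cell types, and in whole tissue fewer cells of a type and less RNA per cell cannot be told apart. Markers of Kupffer cells and other macrophages moved with CR at day 25. Of the 12 markers, 8 fell at day 25 (Clec4f, Vsig4, Cd5l, Csf1r, C1qa, C1qb, C1qc and Lyz2), and their summed FPKM was 87.5, 143 and 86.4 in Con mice and 53.3, 68.5 and 60.8 in CR mice. At day 30, 0 of the 12 fell and 1, Marco, rose, and 10 of the 12 had a log2 fold change below 0 (median -0.18, beside -0.68 at day 25). In the fit over both days, 8 of the 12 fell and 1 rose (median -0.45), where 26.1% of all genes fell and 14.5% rose. Of the 12, 0 passed the test of the difference between days in limma and 1 had an unadjusted p under 0.05. The summed FPKM at day 30 was 110, 101 and 76.2 in Con mice and 73.8, 101 and 69.7 in CR mice, with overlapping groups. Cd5l, the most abundant, had log2 fold changes of -0.78 at day 25 and -0.23 at day 30. The part of macrophages in the falls of either day was not tested.

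Of the 9 genes of the dendritic cell list, 3 were tested, H2-Aa, H2-Ab1 and Cd74, which other antigen-presenting cells share. They did not pass at day 25 and fell at day 30, and 0 of the 3 passed the test of the difference between days in limma (0 at an unadjusted p under 0.05). Cd74, the most abundant, was at 38, 28.9 and 30.7 FPKM in Con mice and 18.6, 22 and 13.8 FPKM in CR mice at day 30 (log2 fold change -0.82, adjusted p = 0.0422). The summed FPKM of the 9 genes was 69.6, 52.9 and 54.0 in Con mice and 32.7, 40.6 and 24.7 in CR mice at day 30. The markers that define these cells, Itgax, Flt3 and Xcr1, did not exceed 0.22 FPKM, Clec9a lay between 0.534 and 1.03 FPKM, and the part of dendritic cells was not tested. All 13 T and NK cell markers, all 5 B and plasma cell markers and 6 of the 7 neutrophil markers stayed under 1 FPKM in every library. Summed over the list, T and NK cell markers reached 0.754 to 2.69 FPKM (most abundant Il2rb), B and plasma cell markers 0.321 to 2.05 FPKM (Cd79b) and neutrophil markers 0.102 to 1.76 FPKM (S100a8), and Ly6g and Camp had no read. All 3 CR mice were below all 3 Con mice for 4 of the 5 B and plasma cell markers at day 25 and for 5 of 5 at day 30. Among the 18362 genes with any reads, 13.8% and 18% lay that way. Of the 7 markers of sinusoidal endothelium, 1 rose at day 25 and 4 at day 30, among them the most abundant, Clec4g (adjusted p = 0.0875 at day 30). Of the 6 stellate cell markers tested, 1 rose at day 25 and 3 at day 30, among them the most abundant, Dcn (adjusted p = 0.0155 at day 30). These shares stand beside the 5.6% and 8.33% of all genes that rose, no marker of either list fell, and the part of these cells in the falls was not tested. The hepatocyte marker Tat, an enzyme of tyrosine breakdown, rose on both days, and Alb and Cps1 rose at day 30. Apoa1, another hepatocyte marker, fell in the fit over both days (log2 fold change -0.23, adjusted p = 0.0703), and Ttr and Hnf4a did not pass.

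**Figure D5:**
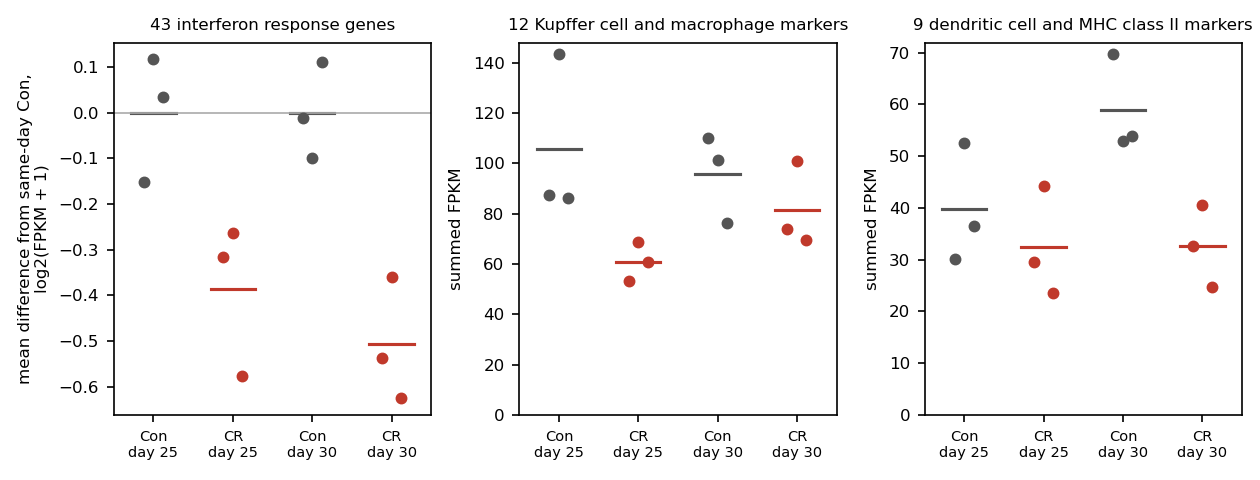
Values of each mouse for Con (grey) and CR (red) at day 25 and day 30, with a line at the mean of 3. The left panel gives the mean difference of the 43 members from the Con mean of the same day in log2(FPKM + 1), and the middle and right panels give the summed FPKM of 12 macrophage and 9 dendritic cell markers. All 6 CR mice lie below the Con mice in the left panel, whereas macrophage markers are separate at day 25 only and dendritic cell markers at day 30 only.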

How the data were processed

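Liver RNA-Seq of 12 mice was used. The authors mapped paired-end reads to mm10 with BWA and tested differential expression with DESeq2, and the submitters' processing notes also name CASAVA 1.8.2 and FastQC. Per the file headers, HOMER counted exonic reads, keeping 1 transcript for each gene, and the authors deposited FPKM without scaling between libraries. Strandedness was not given in the sources used here. Low FPKM values fell on whole multiples of 1 read (100% of those used, within 0.1 of a read plus rounding), which gave depths of 15748962 to 23345213 reads, of which 78.1% to 84.3% lay on exons. Rare members rest on few reads and are the least precise.

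From the deposited FPKM, log2(FPKM + 1) was fitted in limma 3.58.1 (R 4.3.3) with a mean for each of the 4 groups, empirical Bayes moderation with a trend, and 2-sided Benjamini-Hochberg adjustment over the 10593 genes with at least 1 FPKM in at least 3 libraries. A further fit compared CR with Con in all 12 mice, with day as a term. Same-numbered mice of day 25, paired by the numbers in the sample titles, deviated together (correlations 0.368, 0.306 and 0.106), so the number was fitted as a block in an alternative. The labels do not tie the numbered Con samples of day 30 to their columns. Alternatives covered pseudocount, filter, scaling, moderation, groups in the model, thresholds, voom on recovered reads, the block and leaving out each mouse, and voom without a filter or with a 2-fold limit was chosen after seeing the data. The model was also run on simulated reads in which 200 genes were changed in the CR mice of day 30. It recovered 190 of them and called 26 unchanged genes, and with nothing changed it called 0. The simulation gave every gene the same spread beyond counting error and no differences between mice shared across genes, unlike these livers. Named genes are all members, with values in every mouse for those past the threshold, those with the largest changes and the most abundant of each role, and of other lists those past the threshold, ligands, receptors and the most abundant markers. Some genes of the pathway lists are not reported here. The members and lists were chosen with earlier results of these data known. Python 3.11.15 with pandas 2.3.3 and matplotlib 3.10.9 was used for counts and figures.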

Additional observations from a re-analysis of the deposited data

How the results depend on the processing

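The count of members that fell was 16 at day 25, 20 at day 30 and 23 over both days. Leaving out 1 mouse at a time gave 11 to 17 members at day 25, 16 to 20 at day 30 and 22 to 24 over both days, with 11 without the third Con or the third CR mouse of day 25. Under every alternative that kept the threshold, 10 members fell at day 25 (Ddx58, Ifit1, Igtp, Iigp1, Irf1, Irgm1, Irgm2, Oasl1, Parp14 and Rsad2) and 16 at day 30. The matching share of all genes was not counted, so these counts do not compare the members with other genes. A 2-fold limit beside the adjusted p left 2 members at day 25, 7 at day 30 and 6 over both days. With voom on recovered reads, which adds no pseudocount of 1 FPKM, the same limit left 7, 13 and 10. Among all 10593 genes tested, the limit left 68, 136 and 89 lower in the main fit. With voom it left 168, 264 and 201 of them lower. The replicate block at day 25 gave 16 members, with Ifit3 in place of Parp9, and changed no other call. No paired analysis was possible at day 30 because the labels do not tie the numbered Con samples to their columns. Over all genes, leaving out 1 mouse gave 893 to 1374 calls at day 25, 1497 to 2292 at day 30, 3698 to 4198 over both days and 0 to 5 for the difference between days. That difference had 3 calls with a pseudocount of 0.1, 4 with a minimum of 0.1 FPKM and 0 after quantile normalization or voom on recovered reads, with or without a filter. The cause was not tested. TPM moved the median of all genes at day 30 to -0.11 (log2), and members lower there numbered 22. Of all 10593 genes, 2013 were lower at day 30 under TPM, beside 1737 in the main fit.

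The sign of the log2 fold change turned under at least 1 alternative for 7 of the 33 members tested, on a day when the member was not past the threshold. At day 25, Cxcl9 had log2 fold changes of 0.0155 under median-ratio scaling and 0.0459 after quantile normalization, and Gbp3 0.0297 after quantile normalization. At day 30, Bst2 had 0.0321 under median-ratio scaling and Gbp3 0.00393 after quantile normalization. Leaving out 1 mouse at day 25 gave -0.121 to 0.186 for Cxcl9, -0.0651 to 0.219 for Gbp7, -0.0357 to 0.2997 for Bst2, -0.154 to 0.0892 for Gbp3 and -0.0142 to 0.212 for Ifi35. At day 30 it gave -0.469 to 0.0113 for Irf7, -0.218 to 0.156 for Bst2, -0.246 to 0.0400 for Gbp2, -0.211 to 0.0277 for Gbp3 and -0.14 to 0.00898 for Ifi35. Members with few reads, under 1 FPKM in most mice, are the least precise.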

Other observations

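Several members have near-identical copies that could share reads. The copies were listed in the same table, with Ifit3b at 0.248 to 1.19 FPKM, Tgtp2 at 0.053 to 0.33 FPKM, Oas1g at 0 to 0.191 FPKM and Ifitm2 at 102 to 140 FPKM over the 12 livers. Ifitm2 and Ifitm3 were thus both abundant. Stat2 overlaps Apof, Ifi27 overlaps Ifi27l2a and Ifit1 overlaps Ifit1bl1 in the RefSeq annotation, so the strand of origin of those reads is uncertain. Isg15, Dhx58, Ifih1, Usp18, Gbp2, Gbp3, Tgtp1 and Trim30a also overlap other annotated genes.

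The Con mice themselves varied. The first Con mouse of day 25 was the lowest of its group for 29 of the 43 members and the Con mouse numbered 12 was the highest of its group for 24.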
